A study of Rattus norvegicus with 16 samples.

Results

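Glutathione S-transferase genes were followed in the outer medulla of the rat kidney over 28 days of daily dosing. The compound was 2-amino-4-nitrophenol, a nitroaromatic amine called ANP below. The 10 genes were chosen by name to cover the enzyme classes: Gstm1 and Gstm2 (mu), Gstp1 (pi), Gsta3 and Gsta4 (alpha), Gstt1 and Gstt2 (theta), Gsto1 (omega), and Mgst1 and Mgst2 (microsomal). They were measured by 16 probes, out of 27460 probes of 15284 named genes, and all 10 were among the 11849 genes bright enough to be tested. The ANP groups held male Crl:CD Sprague-Dawley rats, 5 weeks old at the first dose, given ANP in corn oil by gavage at 750 mg/kg/day. The vehicle groups (VC) held rats of the same sex, strain and age given corn oil by the same route. Total RNA of each group was hybridised to 1-colour Agilent arrays, 16 in all. At day 1 and at day 7 each group had 1 array, made from the mixed RNA of 3 animals, so those days have no replicates. At day 14 and at day 28 each group had 3 arrays, each of 1 animal.

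Glutathione S-transferases join the thiol of glutathione to electrophilic compounds, and the conjugate is then pumped out of the cell and trimmed to a mercapturate. The cytosolic classes named by Greek letters are soluble dimers with different preferred substrates, while the microsomal enzymes are unrelated membrane proteins with a similar activity. The proximal tubule is the main site of glutathione conjugation and mercapturate formation in the kidney, and its straight segment lies in the outer stripe of the outer medulla. Many of these genes are known targets of the transcription factor NRF2, which binds antioxidant response elements, and some of AP-1.

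Of the 10 genes, 7 had a start site in a RefSeq table of rat promoters (build GRCr8), with 8 windows between them. In the 250 bases before each start, 2 motifs were searched: the antioxidant response element core TGACNNNGC on both strands, and the AP-1 site TGANTCA, which reads the same on both strands. A core that begins TGACTCA contains an AP-1 site, so the motifs can overlap. The core was found before 10.1% and the AP-1 site before 6.34% of the 33469 start sites in the table. The windows of Gstp1, Gsta3 and Gstm1 are printed because these genes rose, as described below, and differ in what the search found. Gstp1 held a core beginning 61 bases before its start that overlaps an AP-1 site (chr1:210769706-210769955, minus strand). The first of the start sites of Gsta3 had a core beginning 17 bases before it (chr9:31154739-31154988, plus strand). The Gstm1 window held neither motif (chr2:198343384-198343633, minus strand). Motif letters are in capitals, and each sequence runs 5′ to 3′ in the direction of transcription.
Gstp1: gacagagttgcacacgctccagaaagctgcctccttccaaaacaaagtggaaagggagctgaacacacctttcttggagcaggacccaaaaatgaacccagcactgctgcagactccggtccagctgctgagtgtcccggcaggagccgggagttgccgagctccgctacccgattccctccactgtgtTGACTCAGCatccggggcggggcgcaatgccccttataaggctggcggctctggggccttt
Gsta3: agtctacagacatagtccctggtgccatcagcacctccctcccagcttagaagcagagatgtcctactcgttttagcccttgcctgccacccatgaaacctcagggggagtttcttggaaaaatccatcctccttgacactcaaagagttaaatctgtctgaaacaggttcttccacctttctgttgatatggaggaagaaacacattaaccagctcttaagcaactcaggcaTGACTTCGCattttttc
Gstm1: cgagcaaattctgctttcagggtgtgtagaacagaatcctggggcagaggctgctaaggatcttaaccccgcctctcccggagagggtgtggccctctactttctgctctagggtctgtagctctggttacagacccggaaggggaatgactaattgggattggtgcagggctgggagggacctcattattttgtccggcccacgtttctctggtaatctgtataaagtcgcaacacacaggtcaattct
Mgst1 held an AP-1 site beginning 140 bases before its start, and the windows of Gstm2, Gsta4 and Gsto1, like the second window of Gsta3, held neither motif. A match in this search says only that the letters are there.

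The arrays were of even quality. The share of probes well above background was 64.8% to 69.6%, and the 75th percentile of processed signal was 809 to 1324. No spot was saturated. All 16 probes of the 10 genes were well above background on all 16 arrays. Signals below are relative signals, the processed signal divided by the 75th percentile of its array, and they compare arrays, not probes. The arrays lay on 4 slides. Slide 1 held the pools, slide 2 the VC arrays of day 14 with ANP replicate 1 of that day, slide 3 the other ANP arrays of day 14 with the VC arrays of day 28, and slide 4 the ANP arrays of day 28 alone. At day 28, therefore, slide and treatment cannot be told apart.

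Tissue markers give the setting of each comparison. Markers of the straight proximal tubule (Slc7a13, Slc22a7, Slc22a13 and Slc3a1) were well above background on every array, as were those of the thick ascending limb other than Slc12a1, which has no named probe. The summed relative signal of the straight tubule markers was 639 to 900 in ANP animals and 667 to 745 in VC animals of day 28, and 662 to 823 in ANP animals and 794 to 881 in VC animals of day 14. Slc3a1 and Slc7a13, which contribute most of these sums, had log2 ratios of 0.07 and 0.15 at day 28. All 4 ratios were above 0, with a median of 0.92. Slc22a7, an organic anion transporter, was called higher (1.68 ± 0.21, limma adjusted p = 0.00474), with 11.5, 6.72 and 8.26 in ANP animals, against 2.67, 2.13 and 3.43 in VC animals. Slc22a13 had a log2 ratio of 1.92 ± 0.52 and did not pass (limma adjusted p = 0.0521).

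At day 28 the 6 glomerular markers summed to 15.95 to 17.3 in ANP animals and 26.0 to 34.5 in VC animals, with a median log2 ratio of -0.97 and 2 called lower. The 5 markers of the convoluted proximal tubule summed to 344 to 409 in ANP animals and 495 to 563 in VC animals, with a median of -0.66 and 0 called. The 7 collecting duct markers summed to 98.01 to 183 in ANP animals and 160 to 176 in VC animals, and 2, Atp6v1g3 and Scnn1g, were called lower. The 3 red cell markers summed to 660 to 871 in ANP animals and 383 to 465 in VC animals, with a median of 0.94 and all 3 called higher. Markers also differed between the days. In VC animals, day 28 minus day 14, 5 of 6 glomerular markers were called higher, with a median log2 difference of 1.79. So were 4 of 5 convoluted tubule markers, with a median of 1.98, while 2 of 4 fibroblast markers were called lower. Of the 4 straight tubule markers 1 was called lower, with a median of -0.76 and 0 above 0. Of 6 thick ascending limb markers 2 were called lower, with a median of -0.53 and 0 above 0. In ANP animals 4 of 6 glomerular and 4 of 5 convoluted tubule markers were called higher, with medians of 1.43 and 1.83. The part of these markers, straight tubule included, in the results below was not tested. In such bulk tissue fewer cells of a type and less RNA per cell cannot be told apart.

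By day 28, 6 of the 10 genes had risen in ANP animals and none had fallen (limma, adjusted p under 0.05 over 11849 genes). Among all genes tested 4.49% rose. The 6 were Gstm1, Gstp1, Gstm2, Mgst1, Gsta3 and Gstt1. For 8 of the 10 every ANP animal lay above every VC animal, which was so for 18.6% of all genes. The median log2 ratio of the 10 was 0.83, against 0.02 over all genes. At day 14 none of the 10 passed, while 0.363% of all genes rose. At that day 6 of the 10 reached an unadjusted p under 0.05 (1588 of all 11849 genes did), and 6 of the 10 had ANP animals all above VC animals, against 10.3% of all genes. The median log2 ratio of the 10 at day 14 was 0.70, against 0.01 over all genes.

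**Figure D1:**
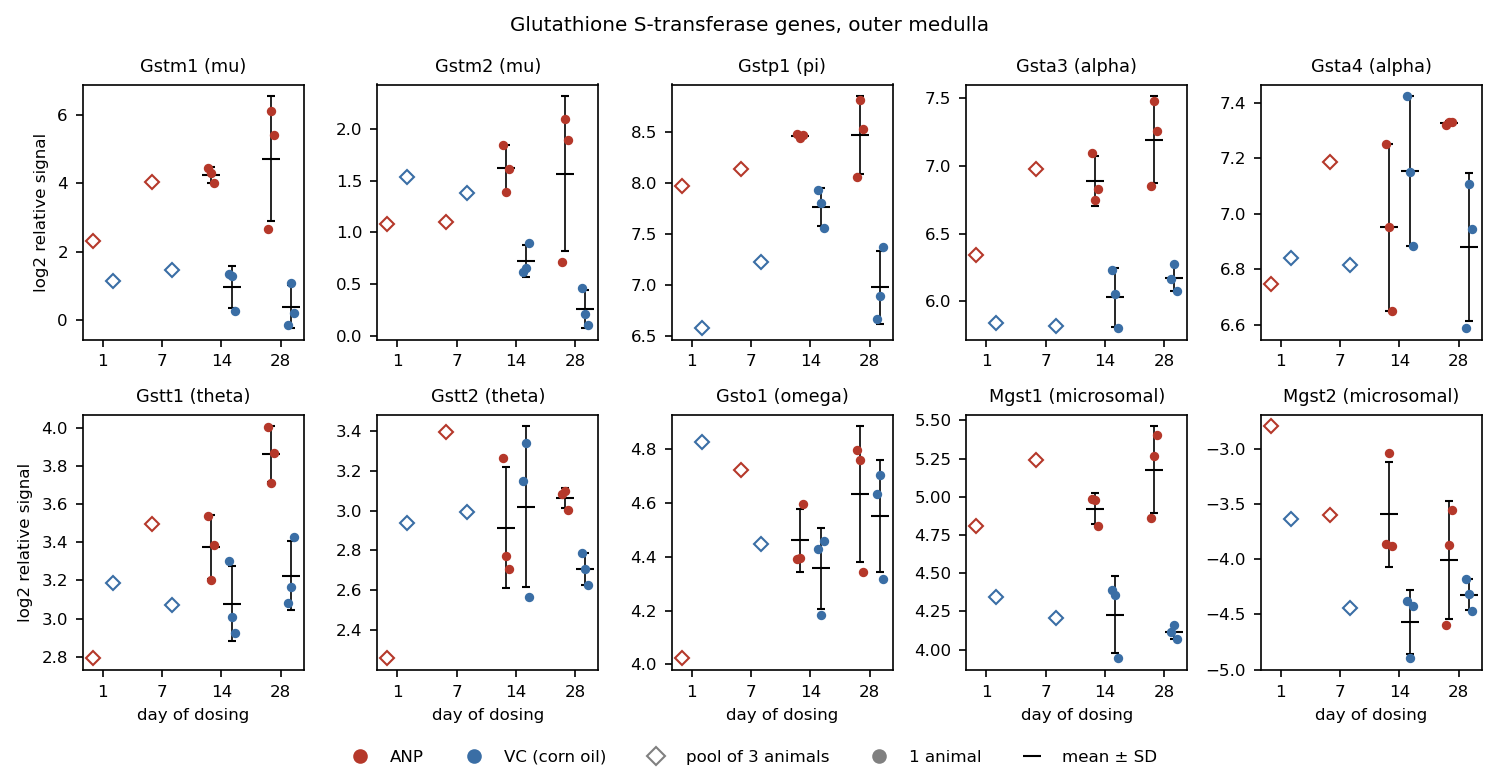
Relative signal (log2 scale, y axis) of the 10 genes by day of dosing, 1 probe per gene, with ANP to the left of VC at each day. Open diamonds are pools of 3 animals, filled circles are single animals, and bars are mean ± SD of 3. Gstm1 shows the widest separation, and its ANP animals spread most at day 28.

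The mu class held the largest response. Gstm1 encodes a cytosolic enzyme with broad activity toward aromatic electrophiles. Its relative signal at day 28 was 6.31, 68.8 and 42.0 in ANP animals, against 0.919, 2.13 and 1.17 in VC animals. The groups did not overlap, but 1 ANP animal, replicate 1, lay far below the rest. The log2 ratio was 4.32 ± 0.73 (SE), a 19.99-fold difference (limma adjusted p = 0.0112, 95% interval 2.70 to 5.94). Its size depended on single ANP animals: the log2 ratio was 5.35 without replicate 1 (limma adjusted p = 0.000734) and 3.63 without replicate 2 (limma adjusted p = 0.0351), and these were the extremes with each animal left out in turn. The SD of the log2 signal was 1.82 among ANP animals and 0.63 among VC animals of that day. At day 14 the ANP animals were close together, at 21.6, 19.5 and 15.98, against 2.56, 2.43 and 1.21 in VC animals. That difference was 9.62-fold, with a log2 ratio of 3.27 ± 0.73, and did not pass (limma adjusted p = 0.0908). A single spread was fitted for all 4 groups, and without ANP replicate 1 of day 28 the day 14 ratio of Gstm1, itself unchanged, passed (limma adjusted p = 0.0108). With each day fitted on its own 2 groups, Gstm1 passed at day 14 (limma adjusted p = 0.0381) and missed at day 28 (limma adjusted p = 0.0539).

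Gstm2, a mu enzyme encoded near Gstm1, rose at day 28, with relative signals of 1.64, 4.27 and 3.72 in ANP animals, against 1.38, 1.16 and 1.07 in VC animals. Replicate 1 of the ANP group was again the lowest, just above the VC range. The log2 ratio was 1.31 ± 0.30, or 2.47-fold (limma adjusted p = 0.0309). This call was lost when any 1 of 5 animals was left out, namely ANP replicates 2 and 3 and VC replicates 1, 2 and 3 of day 28, with adjusted p-values of 0.0675 to 0.0987. On day 14 the signals were 3.59, 2.62 and 3.06 in ANP animals, against 1.53, 1.58 and 1.87 in VC animals, without overlap, and the log2 ratio of 0.89 ± 0.30 missed the threshold (limma adjusted p = 0.229).

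The pi class has 1 gene here. Gstp1 encodes the placental form, long used as a marker of preneoplastic foci in rat liver. Its relative signal at day 28 was 268, 452 and 371 in ANP animals, against 102, 119 and 166 in VC animals. The log2 ratio was 1.49 ± 0.21, or 2.82-fold (limma adjusted p = 0.00628), the smallest adjusted p among the 10. On day 14 the signals were 358, 349 and 355 in ANP animals, against 245, 224 and 190 in VC animals, a log2 ratio of 0.70 ± 0.21 that did not pass (limma adjusted p = 0.193). The ANP mean on the log2 scale was 8.47 at both days, and ANP animals of day 28 minus those of day 14 gave 0.01, with a 95% interval of -0.45 to 0.47. The VC mean was 6.98 at day 28 and 7.77 at day 14. That fall of 0.79 passed (limma adjusted p = 0.0360), and Gstp1 was the only one of the 10 called between the VC groups, where 4.16% of all genes fell. The call held in 14 of 25 alternatives, and with slide as a fixed block the difference was -0.76 (limma adjusted p = 0.436). The VC values of day 28 enter both the treatment contrast and this one. Tissue markers also differed between the VC groups, as given above, and their part in this fall was not tested.

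Among alpha genes, Gsta3 rose and Gsta4 did not pass. RefSeq lists Gsta5, a name now held by another alpha gene, among the older names of Gsta3. Gsta3 gave relative signals of 115, 179 and 153 in ANP animals of day 28, against 71.9, 77.6 and 67.5 in VC animals, with the lowest ANP animal again replicate 1. The log2 ratio was 1.02 ± 0.17, or 2.03-fold (limma adjusted p = 0.0109). At day 14 it gave 137, 108 and 114 in ANP animals, against 75.1, 66.5 and 55.8 in VC animals, with a log2 ratio of 0.86 ± 0.17 (limma adjusted p = 0.0605).

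Gsta4 encodes the enzyme known for conjugating hydroxynonenal, a product of lipid peroxidation. At day 28 its signals were 160, 161 and 161 in ANP animals, against 96.2, 138 and 123 in VC animals. The ANP animals lay close together and above all VC animals, yet the log2 ratio of 0.45 ± 0.18 missed the threshold (limma adjusted p = 0.154, 95% interval 0.04 to 0.85). At day 14 the groups overlapped, with 152, 124 and 100 in ANP animals and 172, 142 and 118 in VC animals, and the log2 ratio was -0.20 ± 0.18.

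Of the theta genes, Gstt1 rose and Gstt2 did not pass. Gstt1, which acts on small halogenated compounds, gave 16.04, 13.1 and 14.6 in ANP animals of day 28, against 8.46, 8.98 and 10.8 in VC animals. Its log2 ratio of 0.64 ± 0.14, or 1.55-fold, passed (limma adjusted p = 0.0262), and here replicate 1 was the highest ANP animal. The call was lost without ANP replicate 1, ANP replicate 3, VC replicate 1 or VC replicate 2 of day 28, with adjusted p-values of 0.0509 to 0.0952. On day 14 the groups overlapped, at 11.6, 9.20 and 10.4 in ANP animals and 9.85, 8.04 and 7.59 in VC animals. Gstt2, known for activity toward sulfate esters, gave 8.48, 8.58 and 8.02 in ANP animals of day 28, against 6.91, 6.53 and 6.17 in VC animals. That was a separation without overlap, but the log2 ratio of 0.36 ± 0.19 did not pass (limma adjusted p = 0.268).

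Gsto1, the omega enzyme, reduces dehydroascorbate and methylated arsenic rather than conjugating typical substrates. It had the smallest difference of the 10 at day 28, at 27.8, 27.1 and 20.3 in ANP animals and 24.8, 26.1 and 19.9 in VC animals. The groups overlapped, and the log2 ratio was 0.08 ± 0.15 (limma adjusted p = 0.770, 95% interval -0.25 to 0.41). This interval leaves out a 2-fold difference in either direction. The day 14 log2 ratio was 0.10 ± 0.15.

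The 2 microsomal genes differed in their record. Mgst1, abundant in endoplasmic reticulum and outer mitochondrial membrane, gave 29.1, 38.4 and 42.4 in ANP animals of day 28, against 17.3, 17.9 and 16.8 in VC animals. The log2 ratio was 1.06 ± 0.15, or 2.09-fold (limma adjusted p = 0.00701). At day 14 it gave 31.6, 31.6 and 28.0 in ANP animals, against 21.0, 20.5 and 15.4 in VC animals, with a log2 ratio of 0.69 ± 0.15 (limma adjusted p = 0.0885). Mgst2, which can make cysteinyl leukotrienes, gave 0.0414, 0.0682 and 0.0853 in ANP animals of day 28 and 0.0551, 0.0501 and 0.0453 in VC animals. Replicate 1 was the lowest of all 6, and the log2 ratio of 0.31 ± 0.29 did not pass (limma adjusted p = 0.520). At day 14 its signals were 0.0689, 0.121 and 0.0678 in ANP animals, against 0.0480, 0.0335 and 0.0467 in VC animals, without overlap, with a log2 ratio of 0.97 ± 0.29 (limma adjusted p = 0.191). The processed signal of Mgst2 was low, at 30.4 to 119 on the day 14 arrays. Over 25 alternatives its day 14 ratio ran from 0.39 to 1.11, so its size is uncertain.

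**Figure D2:**
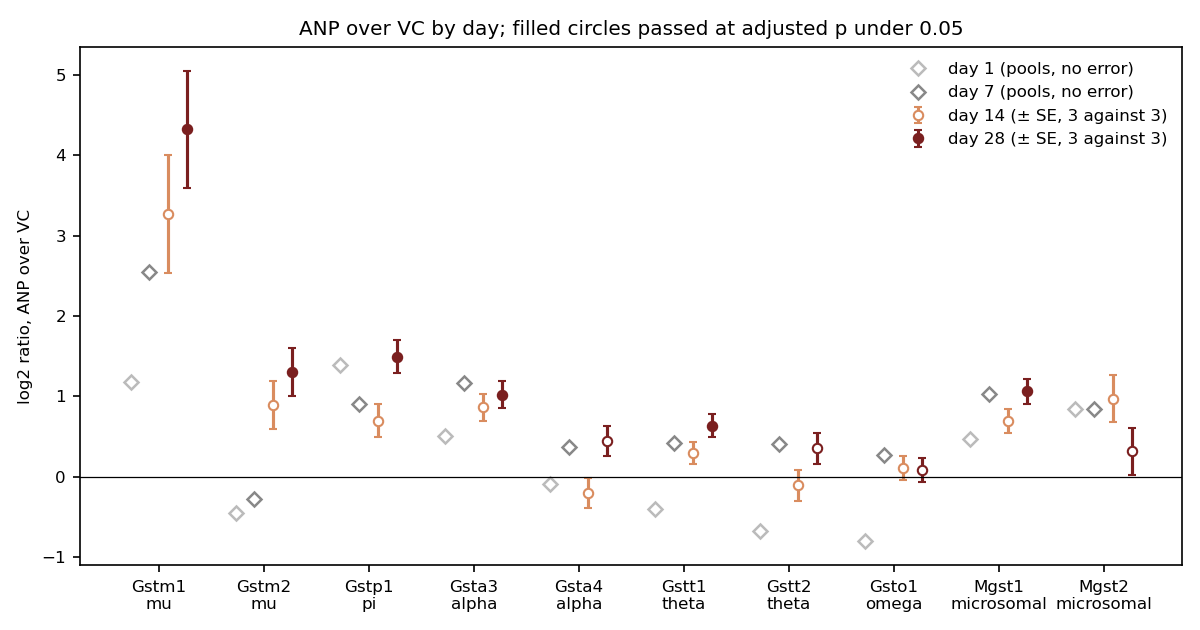
Log2 ratio of ANP over VC (y axis) for the 10 genes in order of class, at days 1, 7, 14 and 28. Diamonds are single pools without error, circles are ratios of 3 against 3 animals ± SE, and filled circles passed at an adjusted p under 0.05, which 6 genes did at day 28.

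The pools of days 1 and 7 describe the first week, 1 array per group. At day 1 Gstp1 was 2.62-fold higher in the ANP pool (relative signal 251 in the ANP pool and 95.7 in the VC pool) and Gstm1 was 2.27-fold higher (4.97 in the ANP pool and 2.19 in the VC pool). These were the 2 genes of the 10 at least 2-fold higher, as were 4.83% of all genes. At that day 5 of the 10 log2 ratios were above 0, as were 46% of all genes, and the lowest were -0.81 for Gsto1 and -0.68 for Gstt2. After 7 days 9 log2 ratios were above 0, as were 56.3% of all genes, and 3 genes were at least 2-fold higher, as were 2.12% of all genes. Gstm1 stood at 16.2 in the ANP pool and 2.77 in the VC pool, a log2 ratio of 2.55. Gsta3 had a log2 ratio of 1.16 and Mgst1 of 1.03. Gstm2 was the gene below 0, at -0.27. Straight tubule markers summed to 324 in the ANP pool of day 1 and 597 in the VC pool. The part of this in the day 1 ratios was not tested.

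The day 28 effect minus the day 14 effect tests whether the response grew. None of the 10 genes passed, and none of all genes did (limma, 0%). At an unadjusted p under 0.05 there were 2 of the 10 and 1098 of all 11849 genes. The 2 were Gstp1, with a difference of log2 ratios of 0.80 ± 0.29 (limma adjusted p = 0.486), and Gsta4, with 0.65 ± 0.26 (limma adjusted p = 0.497). For Gstm1 the difference was 1.06 ± 1.03, with a 95% interval of -1.24 to 3.35. Between the ANP groups themselves, day 28 minus day 14, none of the 10 passed, against 5.34% of all genes. Gstt1 came nearest, at 0.49 ± 0.14 (limma adjusted p = 0.0665). The ANP groups differed in tissue markers too, as given above, and the part of this was not tested.

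The single ANP animals of day 28 separated the genes further. Replicate 1 was 4.79-fold above the VC mean for Gstm1, replicate 2 was 52.2-fold above it and replicate 3 was 31.9-fold. For Gstm2 the excess over the VC mean on the log2 scale was 0.45 in replicate 1, 1.83 in replicate 2 and 1.63 in replicate 3. Replicate 1 was the lowest of the 3 ANP animals in 7 of the 10 genes, against 31.4% of all genes and 34.0% of the genes that rose. In Gsta4, 1 of those 7, the 3 animals spanned 0.01. Gstt1, Gstt2 and Gsto1 were the genes where replicate 1 was not the lowest. It was the highest of the 3 in 2 of the 10 genes, against 47.0% of all genes and 45.3% of the genes that rose. Outside the class single genes went either way. Nqo1, a quinone reductase and NRF2 target, had 1.32, 4.35 and 6.12 in ANP animals, against 0.208, 0.176 and 0.442 in VC animals. Abcc2, an apical exporter of conjugates, had 3.79, 17.7 and 15.9 in ANP animals, against 1.91, 2.52 and 2.53 in VC animals. Osgin1, another NRF2 target, had 27.6, 17.1 and 17.6 in ANP animals, against 8.65, 6.92 and 13.0 in VC animals, and there replicate 1 was the highest. At day 14 the ANP animals were closer for Gstm1, with a range of 0.44, and for Gstp1, with a range of 0.04. Replicate 1 of that day, another animal, was the highest in 8 of the 10 genes. It was the highest in 36.2% of all genes and in 37.2% of the genes that rose at day 14. That animal shared its slide with the VC arrays. Within that slide it exceeded the VC mean by 3.46 for Gstm1, 1.12 for Gstm2, 1.07 for Gsta3, 0.76 for Mgst1 and 0.72 for Gstp1 on the log2 scale. Slide as a fixed block returned these same ratios at day 14, since that animal alone shares a slide with VC arrays of its day. That fit therefore rests on 1 ANP animal and cannot decide whether the genes pass.

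**Figure D3:**
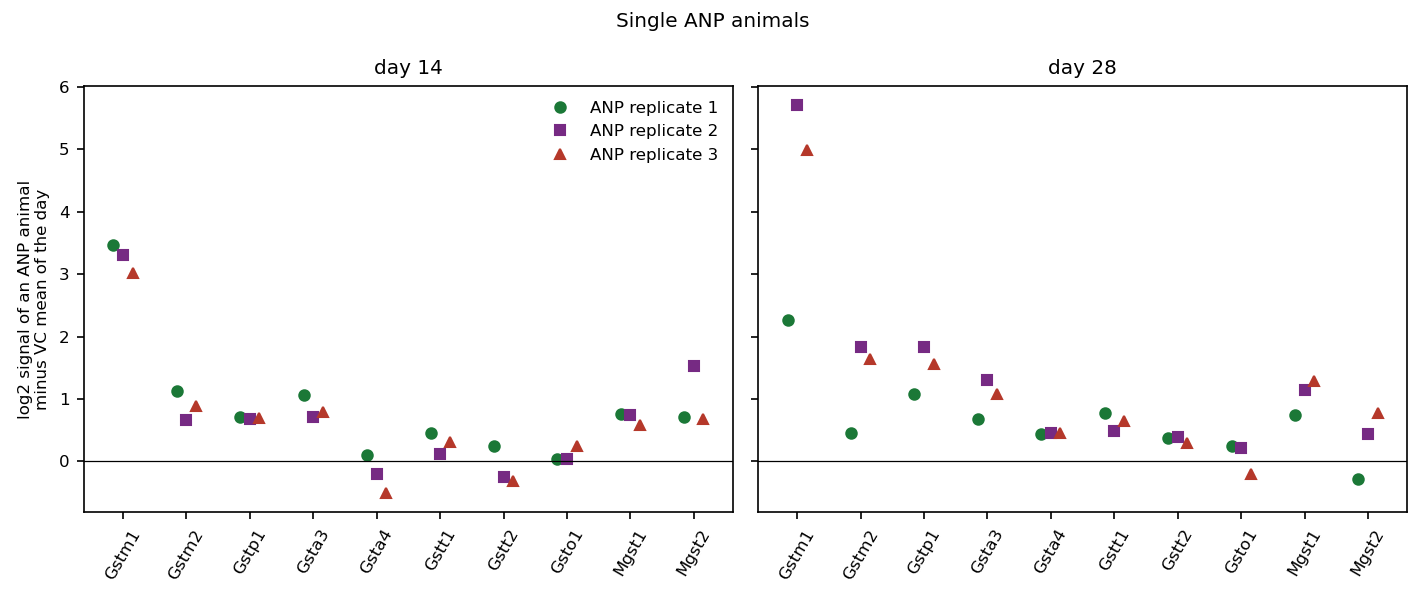
Log2 signal of each ANP animal minus the VC mean of its day (y axis) for the 10 genes, at day 14 (left) and day 28 (right). Colours and shapes mark replicates, which are different animals on the 2 days. At day 28 replicate 1 lies at 2.26 for Gstm1, below 5.71 and 5.00.

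Whether the genes responded to different degrees was tested on the log2 difference of 2 genes within each array, for all 45 pairs, by exact two-sided permutation of ANP and VC labels within day 14 and within day 28. The smallest p that 400 rearrangements allow is 0.005, and 24 pairs passed after Benjamini-Hochberg adjustment over the pairs. With the probes used, Gstm1 exceeded all 9 other genes, by a mean log2 difference of 2.69 over Gstm2 to 3.70 over Gsto1 (exact permutation, adjusted p = 0.0118 each). Gsta3 probe A_64_P035291, not used here, had log2 ratios of 2.40 at day 14 and 3.03 at day 28, against 3.27 and 4.32 for Gstm1. Gstm1 has 1 probe, and its margin over that Gsta3 probe was not tested. Gstp1 and Gsta3 each exceeded Gsta4, Gstt1, Gstt2 and Gsto1. Gstm2 and Mgst1 each exceeded Gsta4, Gstt2 and Gsto1, and Gstt1 exceeded Gsta4. No pair among Gstm2, Gstp1, Gsta3 and Mgst1 passed with the probes used, which for Gstp1 and for Gsta3 is the probe with the smallest ratio of 3. Within classes, Gstm1 exceeded Gstm2 by 2.69 and Gsta3 exceeded Gsta4 by 0.82 (exact permutation, adjusted p = 0.0214), whereas Gstt1 over Gstt2, at 0.34, missed the threshold (exact permutation, adjusted p = 0.0606). Mgst1 over Mgst2, at 0.24, also missed it, with a difference of -0.28 at day 14 and 0.75 at day 28. Each pair compares 2 probes as well as 2 genes.

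Probes of the same gene show how large that component was. Gstp1 had 3 probes, and all rose at day 28. The log2 ratio was 1.49 ± 0.21 for the probe A_43_P13342 used above, 2.26 ± 0.30 for A_44_P182221 and 2.30 ± 0.31 for A_64_P170600, with adjusted p-values of 0.00684 to 0.00705 in a limma fit of 41223 single probes. Gsta3 differed more. The probe used above, A_64_P004231, gave 1.02 ± 0.17 and A_44_P491831 gave 1.17 ± 0.20, whereas A_64_P035291 gave 3.03 ± 0.28 (limma adjusted p = 0.00275). The probe A_64_P035291 read 13.8, 30.0 and 35.1 in ANP animals of day 28, against 2.90, 2.66 and 3.44 in VC animals. It also passed at day 14, at 20.7, 20.2 and 23.3 in ANP animals, against 4.46, 3.49 and 4.29 in VC animals (log2 ratio 2.40 ± 0.28, limma adjusted p = 0.0346). Its response exceeded that of the probe used by 1.77 on the log2 scale (exact permutation, adjusted p = 0.00800 over 8 probe pairs). In all, 5 of the 8 pairs passed. For Gstp1 the response of A_44_P182221 exceeded that of the probe used by 0.76 and that of A_64_P170600 exceeded it by 0.67 (exact permutation, adjusted p = 0.00800 each). For Gsta3 even the excess of 0.15 of A_44_P491831 over the probe used passed (exact permutation, adjusted p = 0.00800), as did that of A_64_P035291 over A_44_P491831, at 1.62. The 2 probes of Gsta4 differed by 0.04 and the 2 of Gstt2 by 0.04, and neither pair passed. Paralogues in the alpha and mu clusters are close in sequence, the files hold no probe sequences, and the share of each signal from a related transcript was not tested.

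**Figure D4:**
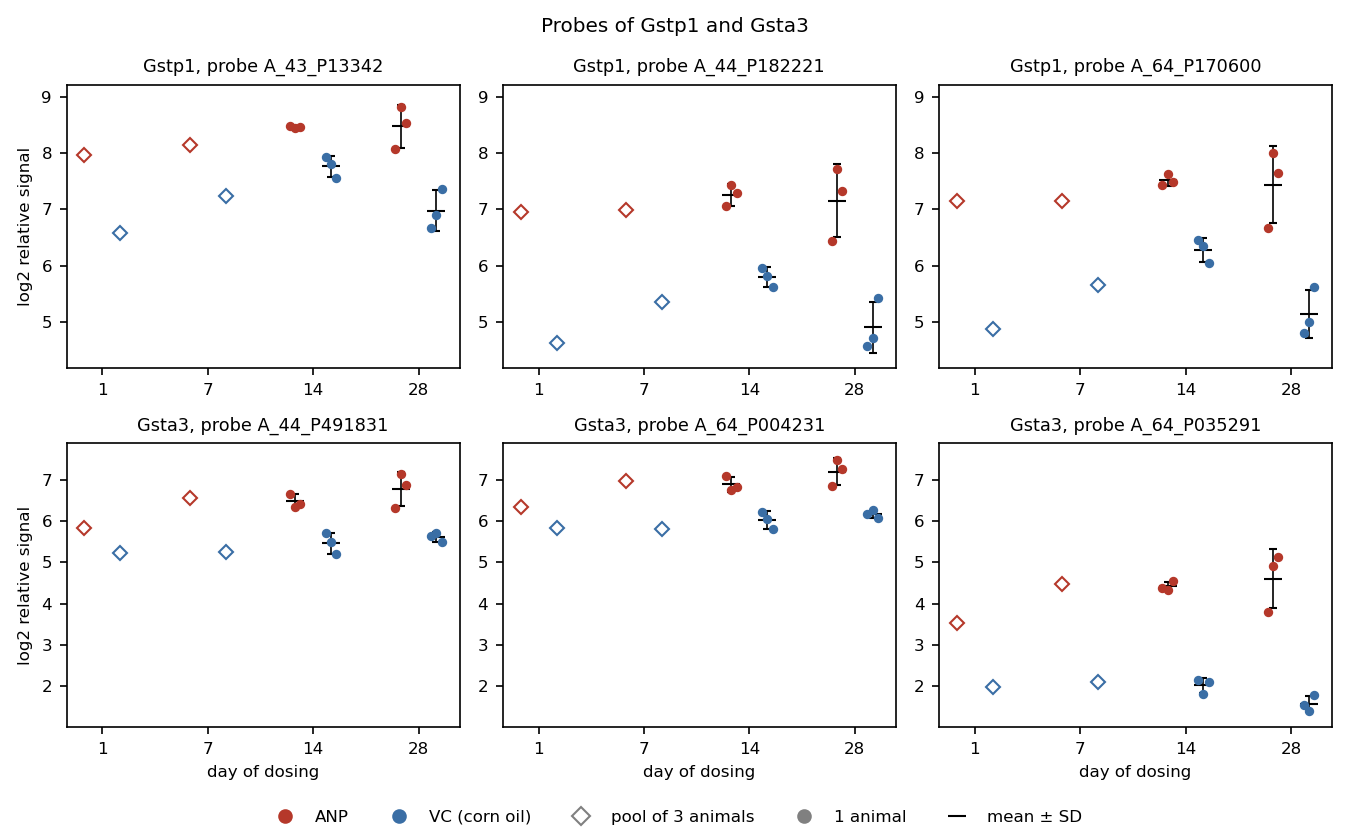
Log2 relative signal (y axis) of the 3 probes of Gstp1 (top) and of Gsta3 (bottom) by day of dosing, ANP left of VC at each day, with pools as open diamonds and single animals as circles with mean ± SD. Probe A_64_P035291 of Gsta3 separates the groups more widely, with a day 28 log2 ratio of 3.03, than A_64_P004231, with 1.02.

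Other transferase genes were read from a list of 20, of which 18 had a named probe and 15 were tested. At day 28, 7 rose and none fell, while 4.49% of all genes rose. At day 14 only Gstm5 rose, while 0.363% of all genes did. Of the 7, 4 were further mu genes. Gstm3 gave 0.0413, 0.110 and 0.109 in ANP animals, against 0.0121, 0.0150 and 0.0104 in VC animals, a log2 ratio of 2.68 ± 0.39 (limma adjusted p = 0.00710). A gene was kept where 1 group was well above background, so the low VC values of Gstm3 may lie near background. The size of its ratio is then uncertain. Gstm7 had a log2 ratio of 2.06 ± 0.39, Gstm4 of 1.31 ± 0.31 and Gstm5 of 1.18 ± 0.20. For Gstm3, Gstm4, Gstm5 and Gstm7 ANP replicate 1 was again the lowest ANP animal. Gstz1, the zeta enzyme of tyrosine breakdown, rose by 0.73 ± 0.15, and Gsta1 by 0.67 ± 0.16. Gstk1, the kappa enzyme of mitochondria and peroxisomes, rose by 0.58 ± 0.10. Of the 8 not called, Gsta6 had the lowest log2 ratio, at -0.61 ± 0.21 (limma adjusted p = 0.108), and the microsomal Mgst3 was at -0.38 ± 0.17. The median log2 ratio over the 15 was 0.27 at day 28, against 0.02 over all genes.

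**Figure D5:**
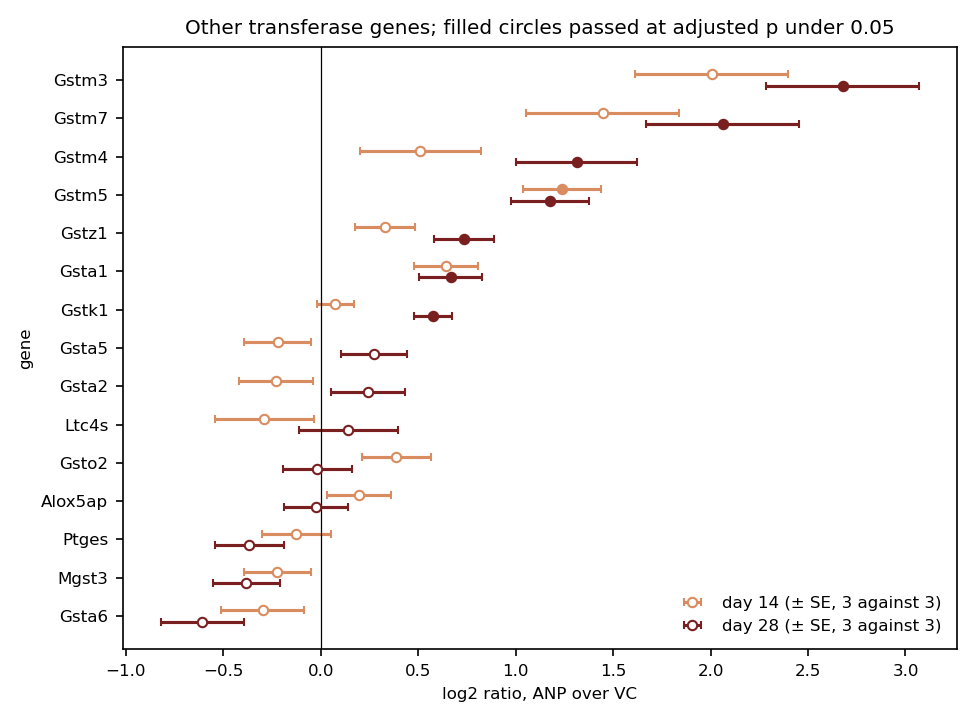
Log2 ratio of ANP over VC ± SE (x axis) for 15 other transferase genes at day 14 and day 28, 3 animals against 3. Filled circles passed at an adjusted p under 0.05. The mu genes Gstm3, Gstm7, Gstm4 and Gstm5 head the order at day 28. The VC values of Gstm3 may lie near background.

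In the rest of the conjugation pathway single genes rose. The counts below stand beside 4.49% of all genes that rose at day 28 and 0.363% at day 14. Of 7 tested genes of glutathione supply, 2 rose at day 28 and none at day 14. Gclm, the modifier subunit of the rate-limiting ligase, gave 0.854, 0.949 and 0.929 in ANP animals, against 0.241, 0.289 and 0.300 in VC animals, a log2 ratio of 1.72 ± 0.22 (limma adjusted p = 0.00474). Its day 14 ratio was 0.01 ± 0.22, and as with Gstp1 its VC level was lower at day 28 than at day 14, by -1.35 ± 0.22 on the log2 scale (limma adjusted p = 0.00670). Gsr, which reduces oxidised glutathione, rose by 0.56 ± 0.12 at day 28 (limma adjusted p = 0.0260). Gclc, the catalytic subunit of the ligase, had 0.20 ± 0.11. Of 15 tested genes of conjugate export and mercapturate formation, 2 rose at day 28: Abcc2 by 2.15 ± 0.51 and Abcc3, a basolateral exporter, by 0.85 ± 0.21. Ggt1, which starts the trimming of the conjugate, had 0.22 ± 0.12 and did not pass. None of 10 transcription regulators passed at either day, and Nfe2l2, which encodes NRF2, had a log2 ratio of -0.10 ± 0.08 at day 28. Among 5 known NRF2 targets outside the pathway, Nqo1 rose by 3.70 ± 0.53, Srxn1 by 2.13 ± 0.50 and Osgin1 by 1.14 ± 0.26 at day 28, while Hmox1 (1.71 ± 0.90) and Txnrd1 (0.45 ± 0.18) did not pass. Hmox1 gave 0.532, 2.27 and 4.98 in ANP animals of day 28, against 0.310, 2.28 and 0.244 in VC animals. VC replicate 2 thus lay within the ANP range.

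The genes whose log2 signal was most like that of Gstm1 over the 16 arrays were named as a description, since the arrays share treatment and slide. Genes known only by a LOC or RGD number were left out. Outside the 10, Pearson's r was 0.955 for Padi1, a peptidylarginine deiminase. It was 0.939 for Aldh1l1, a folate dehydrogenase, 0.929 for Ugp2, which makes UDP-glucose, 0.926 for Tent2, and 0.921 for Slc17a1, a phosphate and urate transporter of the proximal tubule. Padi1 gave 0.460, 0.675 and 0.599 in ANP animals of day 28, against 0.218, 0.209 and 0.232 in VC animals. Its log2 ratio was 1.38 ± 0.13 at day 28 and 0.92 ± 0.13 at day 14. Padi1 was picked for its likeness to Gstm1 over these same arrays, so these ratios are no separate test. Among the 10, r with Gstm1 was 0.948 for Mgst1, 0.925 for Gsta3, 0.861 for Gstp1 and 0.802 for Gstm2. It was between 0.095 for Gsto1 and 0.611 for Gstt1 in the other 5.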

How the data were processed

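RNA of the outer medulla was measured on 16 arrays, and per the submitters' processing notes the scanner output comes from Agilent Feature Extraction (version 10.7). Deposited with each array is the authors' processed signal intensity (background-subtracted, linear) with its median signal and local background. The authors' deposited value table is a ratio of processed signal to the 75th percentile of the array (lowest log2 correlation with it 0.999995, column medians 0.099 to 0.108, linear, not centred by gene). Aligners and genome builds do not apply, and the build of the array design is not used here.

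Log2 processed signal minus the array's 75th percentile was used over 61657 probes without controls. On each array 0 to 9 outlier spots were dropped. Probes were named by RefSeq accession without version (GRCr8 table): 27460 were named and 34197 were not. A gene is its brightest named probe over the 12 arrays of days 14 and 28, kept where some group of those 4 had it well above background throughout. limma 3.58.1 in R 4.3.3 (lmFit, eBayes) fitted 1 mean per group to the 12 arrays, with Benjamini-Hochberg adjustment over 11849 genes and a threshold of 0.05. Levels of different probes were not compared. The number of arrays limits the precision. In simulated data of 11849 genes, 76% of changes of 1 log2 unit were recovered at day 28 and 80% at day 14, with 3.77% and 7.69% of calls false. The simulation changed 200 genes and used normal noise, 1 spread per gene for all groups and no slide effect. These rates need not hold for genes such as Gstm1, whose spread differed between groups, or where slide and treatment coincide.

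The members, lists and tests were chosen with earlier results of these data known. All 10 members, list genes that passed or serve as examples, and the 5 genes most like Gstm1, with LOC and RGD numbers left out, are named. The permutation tests of gene and probe pairs, the fit of single probes, the contrast between ANP groups and the choice of bases before the start for the motif search were added after the data were seen. Alternatives covered normalization, background, filters, probe choice, samples in the fit, replicate and slide blocks and each animal left out.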

Additional observations from a re-analysis of the deposited data

How the results depend on the processing

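The 6 genes that rose at day 28 were counted as 6 under all 4 other normalizations or sources of values, the mean of a gene's probes, both further filters for dim probes, the replicate block, slide as a random block and the robust prior. The random block cannot separate slide from treatment at day 28, and its estimated correlation was -0.09, so it is no check on these calls. The count was 3 with only the 2 groups compared, and 4 to 6 with each animal left out in turn. Gstp1, Gsta3 and Mgst1 passed in all 24 alternatives, Gstm1 in 23, Gstt1 in 19 and Gstm2 in 18. At day 14 the count was 1 with the mean of a gene's probes (Gsta3, limma adjusted p = 0.0184), with slide as a random block (Gsta3), with the robust prior (Gsta3) and with 2 groups only (Gstm1), and 0 to 4 with each animal left out. The 4 passed without ANP replicate 1 of day 28, and were Gstm1, Gstm2, Gsta3 and Mgst1. Between VC groups the count, 1 for Gstp1, was 0 without the filter on dim probes, with the mean of a gene's probes, with 2 groups only and with slide as a fixed block, and 0 to 1 with animals left out (0 without ANP replicate 1 or 3 or any VC replicate of day 14, or VC replicate 1 or 2 of day 28). Between ANP groups it was 1 (Gstt1) with median scaling and with slide as a random block, and 0 to 1 with animals left out.

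Values not called changed sign in a few settings. Gsto1 at day 28 was -0.024 with quantile normalization, -0.030 with normexp and -0.037 to 0.226 with animals left out. Gsta4 at day 14 was 0.10 and Gstt2 0.24 with slide as a fixed block, and Gstt2 ran from -0.331 to 0.056 with animals left out. Gstp1 between ANP groups was -0.21 with quantile normalization, -0.25 with normexp, -0.057 with the mean of its probes and -0.165 to 0.212 with animals left out. The median of the 10 genes in the day 7 pools was 0.34 with normexp, against 0.63. The cause was not tested in these cases.

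Over all genes, 851 were called at day 28 and 57 at day 14. At day 28 the count was 431 with 2 groups only, 1859 with slide as a random block (estimated correlation -0.09) and 211 to 975 with animals left out (552 without ANP replicate 1, 297 without ANP replicate 2, and 217, 211 and 473 without VC replicates 1, 2 and 3). At day 14 it was 119 with normexp, 28 without the filter, 20 with 2 groups only, 36 with the replicate block, 0 with slide as a fixed block, 133 with slide as a random block and 1 to 93 with animals left out (24, 7 and 1 without ANP replicates 1, 2 and 3 of day 14, 3 without VC replicate 2 of day 14, 93 without ANP replicate 1 and 35 without VC replicate 3 of day 28). At day 28, 62.5% of calls were higher (532 of 851), and 76.0% with median scaling (773 higher, 244 lower). At day 14, 75.4% were higher, and 58.0% with normexp (69 higher, 50 lower).

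The labels do not say that replicate numbers pair the animals. Same-numbered ANP and VC animals correlated at 0.129, 0.069 and 0.144 at day 14 in their deviations from group means. Differently numbered animals correlated lower at that day, at -0.179 to 0.049. At day 28 same-numbered animals correlated at -0.068, -0.045 and 0.112, and differently numbered ones at -0.120 to 0.156. These values do not settle whether the numbers pair animals. With the replicate block 6 genes of the 10 were called at day 28 and 0 at day 14. Slide as a fixed block could not be fitted at day 28, and naming probes by a gene name column was not run because the files hold none.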
